A study of Mus musculus with 6 samples.

Results

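The clustered histone genes are the genes for the core histones H2A, H2B, H3 and H4 and the linker histone H1 that lie side by side in genomic clusters. They were chosen by symbol: H2ac, H2bc, H3c or H4c followed by a number, and H1f1 to H1f5, which gave 63 of the 32227 genes in the files. The set held 5 genes for H1, 17 for H2A, 17 for H2B, 12 for H3 and 12 for H4. The set was proposed with earlier readouts of these libraries known, so its levels are given as a description.

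Most of these genes are replication-dependent: their RNA builds up when DNA is copied in S phase and is destroyed soon after. Their messages end in a conserved stem-loop rather than in a poly(A) tail, and the stem-loop binding protein Slbp follows them from processing to translation. Chemistry that primes on poly(A) therefore reads them poorly, unless a tail is added or an A-rich stretch offers a priming site.

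The study profiled CD8+ T cells of C57BL/6 mice by single-cell RNA sequencing with the PIPseq v3 kit, to ask how PD-1 shapes these cells from the thymus onward. The 6 libraries were 1 per genotype and tissue: thymus and spleen at baseline, and B16-OVA melanoma taken 12 days after injection. Pdcd1 cKO mice carried Pdcd1fl/fl with E8I CD8-Cre, which acts in CD8+ T cells after positive selection, and Pdcd1fl/fl mice without Cre were the controls. All were adult. Thymic and splenic cells were enriched with a CD8a+ T cell isolation kit and tumor cells with CD8 TIL microbeads. Each thymus and spleen library came from a single mouse and each tumor library from pooled mice. No group had a second library, so no difference has a replicate check, and no p-value is given.

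Cells were kept with at least 500 genes, at least 1000 unique molecular identifiers (UMIs) and at most 20% mitochondrial UMIs. This left 1067 and 2635 thymus cells in the libraries labelled fl/fl and cKO, 1478 and 4928 spleen cells, and 456 and 561 tumor cells. The spleen library labelled fl/fl kept only 21.3% of its 6929 barcodes, whereas the other 5 kept at least 98.5%. Median UMIs per cell were 4361 and 5417 in thymus, 1320.5 and 1615 in spleen, and 13809.5 and 9510 in tumor, in the same order. Depth thus differed widely between tissues. No barcode was shared in any of the 15 pairs of libraries (0 in each).

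Pdcd1, the targeted gene, went against the labels in all 3 tissues, least in tumor. Its UMIs numbered 12 in the thymus library labelled fl/fl and 131 in that labelled cKO, or 1.88 and 6.84 CPM (UMIs for every 1000 x 1000 UMIs of the library). Spleen gave 1 and 104 UMIs, or 0.450 and 11.7 CPM, and tumor 717 and 808 UMIs, or 76.4 CPM (70.9 to 82.2) and 102 CPM (95.1 to 109). A tag from a part of the gene outside the deleted exons would check nothing, and the deleted exons are not given in the labels. Genotype is therefore named by label only, and each direction between genotypes rests on those labels.

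The CD8 T cell markers (6 of 6 read in each library, led by Cd3g or Cd3d) summed to 1396 to 3924 CPM. A Cd8a or Cd8b1 UMI was found in 55.2 and 66.5% of thymus cells, 58.4 and 78.8% of spleen cells and 75.4 and 91.3% of tumor cells. Other cell types were read too, in spleen as well, and they are named here only in part. Immature thymocyte markers summed to 828 and 700 CPM in thymus, led by Dntt, and the melanoma markers in tumor were led by Dct and Pmel.

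All 63 clustered histone genes were read, 54 of them in every library, with 53677 UMIs in all. The sum per library was 6984 and 25482 UMIs in thymus, 714 and 3686 in spleen, and 6999 and 9812 in tumor. As a share of all RNA these were 1093 CPM (95% interval 1067 to 1119) and 1331 CPM (1315 to 1348) in thymus. Spleen gave 321 CPM (298 to 346) and 413 CPM (399.8 to 427), and tumor 746 CPM (729 to 764) and 1238 CPM (1214 to 1263). Clustered histone RNA was thus high in thymus and tumor and low in spleen, and in each tissue higher in the library labelled cKO. Intervals are exact (Poisson for levels, Clopper-Pearson for shares, conditional binomial for ratios) and cover counting error only, not differences between mice.

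Without regard to depth, 87.9 and 92.8% of thymus cells, 31.6 and 45.7% of spleen cells and 93.9 and 97.3% of tumor cells held a clustered histone UMI. With each cell thinned to 1000 UMIs the shares were 54.1% (51.0 to 57.1) and 53.0% (51.1 to 54.9) in thymus. They were 23.7% (21.5 to 25.9) and 31.7% (30.4 to 33.0) in spleen, and 46.5% (41.8 to 51.2) and 64.3% (60.2 to 68.3) in tumor. Equal depth thus narrowed the gap between tissues but left spleen lowest. The UMIs were also uneven among cells: the 10% of thymus cells labelled cKO with the most histone UMIs held 58.6% of them and 27.9% of all UMIs, and in the tumor library labelled cKO those cells held 33.9 and 16.3%.

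A few genes carried the signal. H2ac23 and H2ac24, near-identical H2A genes, held 25.3% of the UMIs, and 8 of the 63 held 50% or more. Per kilobase of annotated exon, over the 6 libraries together, H2ac23 gave 14202 UMIs and H2ac24 gave 14054. H2ac11, the third H2A gene by UMIs, was behind them at 4823. A UMI marks a transcript and not a base, so values per kilobase depend on the annotated length and can change the order of genes. At the other end stood the testis-type gene H2ac1 with 3 UMIs in all, named after its value was seen.

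By type, H2A led in every library. It held 51.9 and 57.9% of clustered histone UMIs in thymus, 44.7 and 33.7% in spleen, and 55.9 and 59.7% in tumor. H2B followed in the thymus library labelled fl/fl with 23.2% and in the tumors with 19.8 and 15.9%, but H1 came second in the thymus library labelled cKO with 18.4% and in spleen with 21.4 and 30.8%. Core histones enter the nucleosome in equal numbers, yet the counts of the 4 core types were far from equal, and H3 held only 3.22 to 7.96%.

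**Figure D1:**
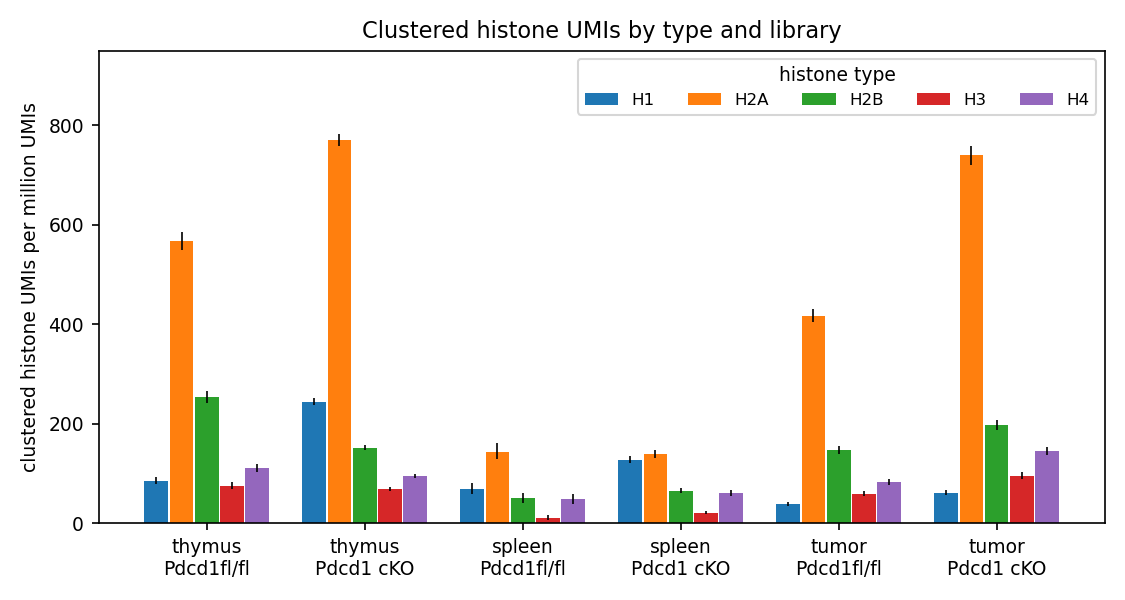
Clustered histone CPM (vertical axis) by histone type (bars) in the 6 libraries; error bars are exact Poisson 95% intervals, which cover counting error only. H2A is the tallest bar in each library, and in the spleen library labelled cKO H1 stands close to it (127 against 139 CPM).

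The H1 genes encode linker histones, which bind where DNA enters and leaves the nucleosome. H1f2 gave 2545 UMIs per kilobase of exon over the libraries, H1f5 gave 1694 and H1f4 gave 701. Without that division H1f4 came before H1f5, with 1353 against 1259 UMIs. H1f2 ran at 36.5 and 108 CPM in thymus, 61.2 and 108 CPM in spleen and 28.5 and 38.2 CPM in tumor. It was thus as high in spleen, where few cells cycle, as in thymus. H1f5 ran instead at 23.005 and 52.4 CPM in thymus but only 0.450 and 1.34 CPM in spleen.

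Among H2A genes, H2ac23 ran at 120 and 177 CPM in thymus, 8.10 and 8.96 CPM in spleen and 108 and 195 CPM in tumor. H2ac24 ran at 119.6 and 192 CPM, 5.40 and 9.52 CPM, and 97.0 and 167 CPM. H2ac18 and H2ac19, a second near-identical pair, did the reverse: H2ac18 ran at 27.7 and 22.2 CPM in thymus, 54.0 and 46.2 CPM in spleen and 20.3 and 29.1 CPM in tumor. The members that dominated therefore changed with the tissue. H2ac23 and H2ac24 held 21.9 to 29.3% of clustered histone UMIs in the thymus and tumor libraries but 4.202 and 4.48% in spleen, whereas H1f2, H2ac18 and H2ac19 held 52.2 and 48.2% in spleen and 7.88 to 11.4% elsewhere.

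Over the 6 libraries together H2B was led by H2bc4, though H2bc11 had more UMIs in the thymus library labelled fl/fl. H2bc4 ran at 50.2 and 56.1 CPM in thymus, 21.6 and 24.9 CPM in spleen and 81.5 and 82.9 CPM in tumor. Per kilobase of exon it gave only 999 UMIs, since its annotated exons are long, against 2605 for H2bc11 and 1116 for H2bc12. Without that division it had the most, with 3086 UMIs against 1206 and 531. H2bc11 ran at 59.5 and 19.1 CPM in thymus, so it was lower in the library labelled cKO. In H3, the wrapping partner of H4, H3c3 gave 1465 UMIs per kilobase of exon, H3c1 gave 1024 and H3c2 gave 440. In H4, H4c9 gave 2206, H4c3 gave 818 and H4c4 gave 668. Undivided, H4c4 came before H4c3, with 760 against 671 UMIs. H3c3 ran at 15.3 and 22.6 CPM in thymus, 0.450 and 0.672 CPM in spleen and 18.7 and 26.6 CPM in tumor, so it nearly vanished from spleen, and H4c3 did not, at 13.1 and 17.8 CPM there against 14.6 and 6.48 CPM in thymus.

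Cells were then grouped by cell cycle RNA. The number of UMIs from 40 S-phase genes and 40 mitosis genes among 1000 thinned UMIs put each cell in a class with none, with 1 to 2, or with 3 or more. No histone gene is in either list. The class with 3 or more held 79.5 and 49.4% of thymus cells, 6.56 and 10.4% of spleen cells and 46.1 and 52.0% of tumor cells. Cells with none are the class the others are set against, and free RNA itself was not measured. Their median depth was 3649.5 and 5787 UMIs in thymus against 4903.5 and 5453 in the class with 3 or more, 1324 and 1617.5 against 1351 and 1580 in spleen, and 12071 and 8042 against 15862 and 10359.5 in tumor.

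Clustered histone RNA rose with cell cycle RNA in every library. In thymus it ran at 460 CPM with none, 497 CPM with 1 to 2 and 1191 CPM with 3 or more in the library labelled fl/fl, and at 592, 669 and 1801 CPM in that labelled cKO. Spleen gave 291, 305 and 591 CPM and then 375, 400.2 and 601 CPM. Tumor gave 358, 491 and 1072 CPM and then 564, 958 and 1663 CPM. The class with 1 to 2 stood close to that with none in thymus and spleen, where its log2 fold was 0.07 to 0.18, and clearly above it in tumor, at 0.45 and 0.77.

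The log2 fold of 3 or more over none was 1.37 (1.10 to 1.66) and 1.61 (1.52 to 1.69) in thymus. It was 1.02 (0.69 to 1.35) and 0.68 (0.54 to 0.82) in spleen, and 1.58 (1.47 to 1.69) and 1.56 (1.45 to 1.67) in tumor. In spleen it moved with the threshold: with 2 or more UMIs it was 0.45 and 0.31, and with 5 or more it was 1.41 in the library labelled cKO, while that labelled fl/fl had only 16 such cells. These folds were smaller than those of the lists that set the classes, whose S-phase genes summed to log2 folds of 2.02 to 3.76 and mitosis genes to 3.09 to 4.75, by construction.

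The share of cells with a clustered histone UMI at 1000 UMIs rose too. In thymus it went from 35.7% (23.4 to 49.6) with none to 58.6% (55.2 to 61.9) with 3 or more in the library labelled fl/fl, and from 39.4% (34.2 to 44.8) to 63.5% (60.8 to 66.1) in that labelled cKO. Tumor went from 21.2% (13.6 to 30.6) to 63.8% (56.9 to 70.3) and from 42.2% (31.4 to 53.5) to 74.7% (69.3 to 79.5). Spleen went only from 24.1% (20.9 to 27.5) to 32.0% (22.9 to 42.2) and from 30.2% (28.2 to 32.3) to 35.4% (31.3 to 39.7). Read whole, 69.6 and 89.0% of thymus cells, 30.7 and 43.5% of spleen cells and 89.9 and 91.6% of tumor cells with no cell cycle UMI still held a clustered histone UMI. How much of this was free RNA was not tested.

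**Figure D2:**
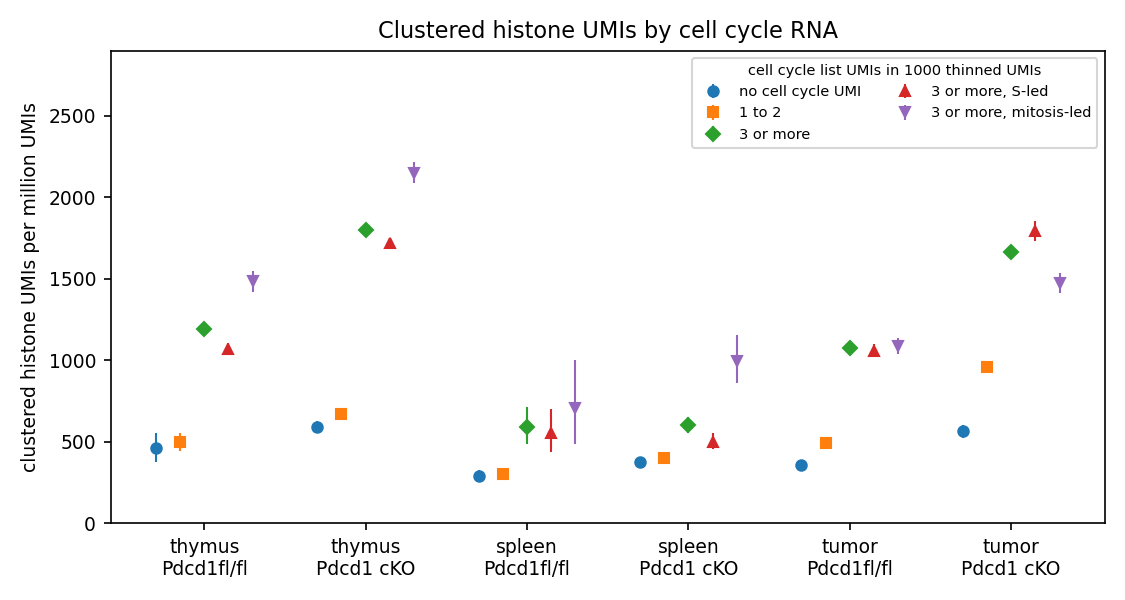
Clustered histone CPM (vertical axis) in cells with no, 1 to 2 or 3 or more cell cycle list UMIs among 1000, and with the last class split by the larger list, in the 6 libraries; error bars are exact Poisson 95% intervals. The class with 3 or more lies above the class with none in each library, from 1191 against 460 CPM in the thymus library labelled fl/fl to 601 against 375 CPM in the spleen library labelled cKO.

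Cells with 3 or more held 93.8 and 80.1% of clustered histone UMIs in thymus, with 86.1 and 59.2% of all UMIs. They held 70.4 and 66.8% in tumor, with 49.0 and 49.7% of all UMIs, and 14.7 and 16.4% in spleen, with 8.004 and 11.2% of all UMIs. Most clustered histone RNA of the spleen libraries therefore came from cells with fewer than 3 cell cycle UMIs.

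Counted gene by gene, the members rose more than most genes outside the spleen library labelled fl/fl. A gene was counted as past 2-fold at an absolute log2 fold of 1 or more, with 0.5 added to each count, among genes with at least 20 UMIs in both classes together. In the thymus library labelled cKO, 44 of 60 members tested were at least 2-fold higher with 3 or more and 0 lower, against 16.6 and 6.32% of 12762 genes, and the median log2 fold was 1.99 against 0.26. In that labelled fl/fl, 31 of 50 were higher and 1 lower, against 18.4 and 12.8% of 10496 genes, with medians of 1.33 and 0.02.

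In the tumor library labelled fl/fl, 33 of 41 members were higher and 2 lower, against 9.82 and 13.2% of 11326 genes, with medians of 2.52 and -0.19. In that labelled cKO, 37 of 48 were higher and 1 lower, against 11.3 and 20.7% of 10210 genes, with medians of 2.01 and -0.20. Of the 99 and 83 tumor cells with no cell cycle UMI, only 46 and 48 had fewer than 3 melanoma and fewer than 3 myeloid marker UMIs. These tumor counts were not rerun without the other cells. Spleen had too few UMIs for most members. There 1 of 4 was higher and 1 lower in the library labelled fl/fl, against 10.6 and 6.26% of 5482 genes, with equal medians of 0.20. In that labelled cKO, 8 of 22 were higher and 0 lower, against 8.44 and 1.69% of 9860 genes, with medians of 0.91 and 0.28.

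The types differed in how far they followed cell cycle RNA. H2A had log2 folds of 1.64 and 2.10 in thymus, 0.84 and 0.84 in spleen and 2.66 and 2.58 in tumor, and H3 had 2.35 and 2.69 in thymus, 0.49 (-2.79 to 2.81) and 1.67 in spleen and 2.12 and 1.54 in tumor. H4 had 1.40 and 1.52 in thymus, 0.98 and 0.21 (-0.20 to 0.60) in spleen and 1.80 and 1.87 in tumor. H1 followed less: it had -0.30 (-0.88 to 0.34) and 0.67 (0.51 to 0.83) in thymus, -0.22 (-1.29 to 0.70) and 0.19 (-0.09 to 0.47) in spleen, and 0.22 (-0.17 to 0.62) and 0.65 (0.24 to 1.07) in tumor. H1f2 alone gave 277 of the 373 H1 UMIs with none and 937 of the 3164 with 3 or more in the thymus library labelled cKO. H2B followed in thymus, at 1.58 and 0.92, and in spleen, at 2.41 and 1.20, but not in tumor, at -0.12 (-0.31 to 0.07) and -0.28 (-0.47 to -0.10). The tumor values by type moved without cells with 3 or more melanoma or myeloid marker UMIs. Between none and 3 or more, H2B then rose from 95.2 to 192 CPM in the library labelled fl/fl and from 136 to 217 CPM in that labelled cKO. H3 rose from 78.1 to 155 CPM and only from 134 to 145 CPM, and H4 from 95.2 to 195 CPM and from 134 to 215 CPM. H2A went from 215 to 1164 CPM and from 309 to 1244 CPM, and H1 from 34.2 to 54.7 CPM and from 65.7 to 75.4 CPM.

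Within types the split was sharper. In the thymus library labelled cKO, which had the most cells with 3 or more, 46 members had at least 50 UMIs in the classes compared. Their median log2 fold was 1.97, and 35 were at 1 or more. No share over all genes was taken at 50 UMIs. With at least 20 UMIs, 16.6% of 12762 genes were at 1 or more, with a median of 0.26. The highest were H3c3, from 1.88 to 35.6 CPM (log2 fold 4.24, 2.87 to 6.12), H2bc12, from 1.41 to 16.3 CPM (3.53, 1.96 to 5.82), and H2ac22, from 2.83 to 28.2 CPM (3.32, 2.18 to 4.78).

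The lowest ran the other way. H1f2 went from 130 CPM with none to 82.6 CPM with 3 or more (log2 fold -0.66, -0.85 to -0.46), H2ac18 from 27.3 to 19.8 CPM (-0.47, -0.89 to -0.03) and H2ac19 from 24.5 to 18.3 CPM (-0.42, -0.86 to 0.05). The same genes had folds below 0 in the other thymus library and in the tumors. H1f2 had -1.31 in the thymus library labelled fl/fl and -0.33 and -0.10 in tumor, and H2ac18 had -0.35, -1.10 and -0.63 there. The tumor values moved without the cells with 3 or more melanoma or myeloid marker UMIs: H2ac18 then went from 24.4 to 20.1 CPM and from 26.8 to 27.9 CPM, and H1f2 from 26.8 to 29.5 CPM and from 53.5 to 39.2 CPM. The genes that led in spleen thus rose little or not at all with cell cycle RNA elsewhere. In cells with none, H1f2, H2ac18 and H2ac19 held 31.8 and 30.8% of clustered histone UMIs in thymus and 56.2 and 51.8% in spleen, against 6.78 and 6.70% and 22.9 and 31.3% with 3 or more.

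**Figure D3:**
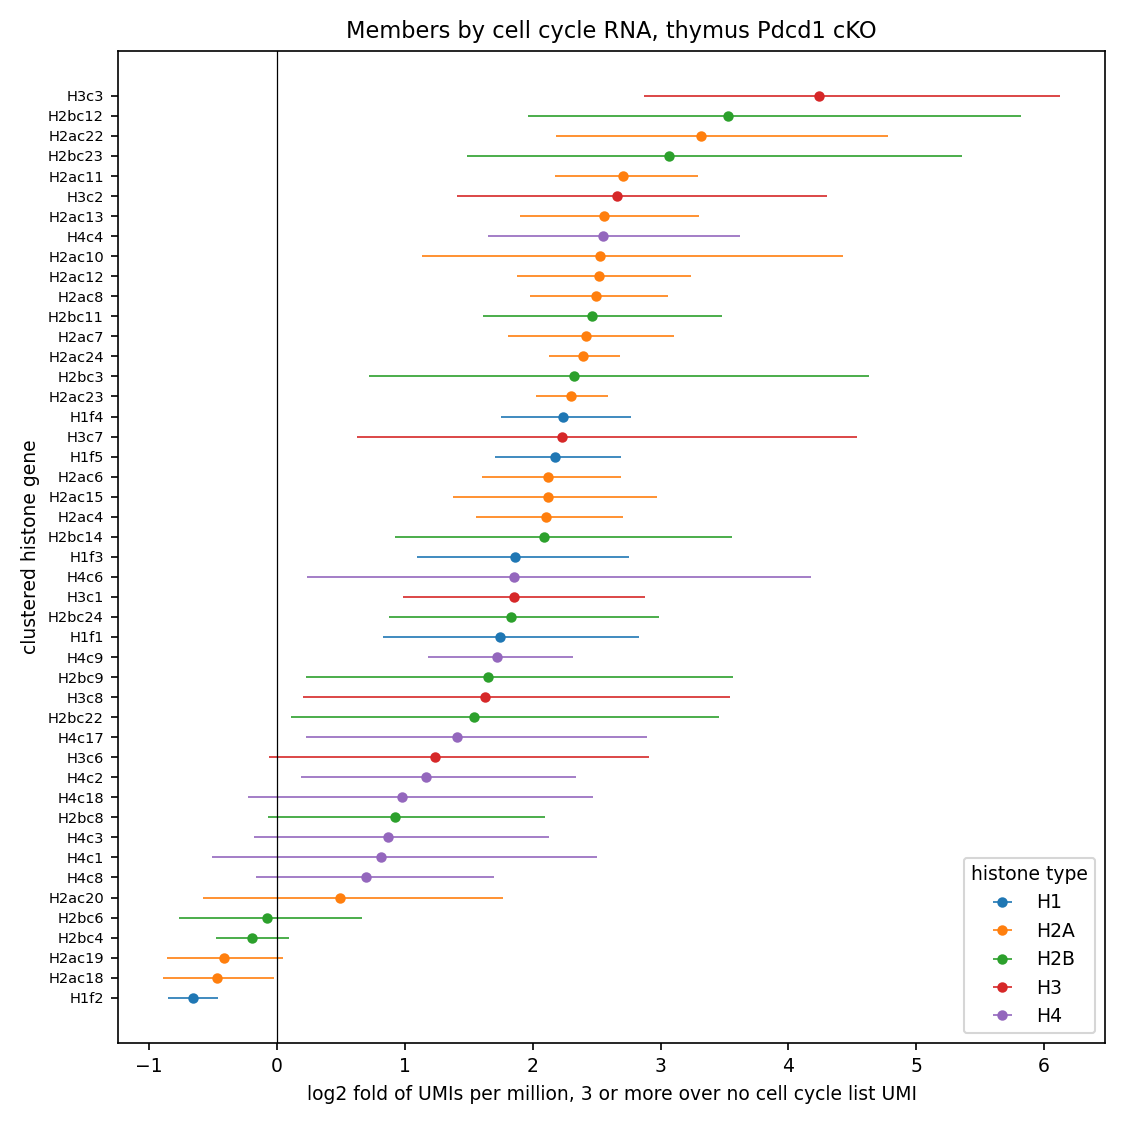
log2 fold of CPM (horizontal axis) of cells with 3 or more over cells with no cell cycle list UMI, for the 46 clustered histone genes with at least 50 UMIs in the 2 classes together in the thymus library labelled cKO, coloured by histone type; bars are exact conditional binomial 95% intervals. H3c3 is highest at 4.24 and H1f2 lowest at -0.66.

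H2bc4 stood apart in tumor. It went from 138 CPM with none to 47.7 CPM with 3 or more in the library labelled fl/fl (log2 fold -1.54, -1.80 to -1.28) and from 198 to 46.7 CPM in that labelled cKO (-2.08, -2.36 to -1.81). In thymus its folds were 0.24 (-0.66 to 1.32) and -0.20 (-0.48 to 0.10). It alone made up 38.6 and 35.1% of clustered histone UMIs in tumor cells with none, where it gave 288 of 334 and 280 of 346 H2B UMIs.

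Melanoma and myeloid RNA was read in part of those cells. The melanoma list (6 of 6 read) summed to 8808 and 4891 CPM and the myeloid list (8 of 8 read, led by Lyz2) to 330 and 625 CPM. At least 3 melanoma marker UMIs among 1000 were found in 142 tumor cells labelled fl/fl (31.1%) and 59 labelled cKO (10.5%), at median depths of 31889 and 34344 UMIs. Their clustered histone RNA was low, at 247 and 397 CPM, and H2bc4 gave 119 and 189 CPM of it, while H2ac23 gave 3.79 and 10.01 CPM. In the 293 and 474 cells with fewer than 3 melanoma and fewer than 3 myeloid marker UMIs, clustered histone RNA was 1438 and 1645 CPM, H2bc4 31.5 and 38.2 CPM, and H2ac23 253 and 285 CPM. Within these cells H2bc4 was level across the classes, at 36.6 CPM with none and 29.5 CPM with 3 or more in the library labelled fl/fl and at 43.8 and 40.1 CPM in that labelled cKO, whereas H2ac23 went from 26.8 to 330 CPM and from 58.4 to 355 CPM. The drop of H2bc4 with cell cycle RNA was thus not seen without the cells with melanoma or myeloid markers.

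Cells with 3 or more were split by which list gave more UMIs. The mitosis-led cells had more clustered histone RNA than the S-led ones in thymus, at 1484 against 1070 CPM and 2152 against 1722 CPM, with log2 folds of 0.47 (0.39 to 0.55) and 0.32 (0.27 to 0.37). In spleen the log2 fold was 0.35 (-0.30 to 0.97) in the library labelled fl/fl and 0.995 (0.73 to 1.25) in that labelled cKO. In tumor it was 0.04 (-0.05 to 0.12) and -0.28 (-0.36 to -0.20), so the S-led cells were higher in the tumor library labelled cKO. H2A was below 0 in both tumor libraries, at -0.18 (-0.29 to -0.06) and -0.40 (-0.50 to -0.31). In the tumor library labelled cKO, H3 had -0.28 (-0.57 to 0.01) and H4 -0.19 (-0.42 to 0.04). H2B had 0.13 (-0.09 to 0.36) and H1 0.21 (-0.18 to 0.59) there. H2B in the tumor library labelled fl/fl stayed above 0 at 0.46 (0.23 to 0.70). These tumor folds include the cells with melanoma or myeloid markers, and the split was not run without them. Of the cells with 3 or more melanoma marker UMIs, 34.5 and 23.7% had 3 or more cell cycle UMIs. The S-led class is a range of a count and not a sorted phase.

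Depth was followed in the number of clustered histone UMIs more than in their share. Within a library, a cell's clustered histone UMIs rose with its total UMIs, with Spearman correlations of 0.61 and 0.50 in thymus, 0.16 and 0.17 in spleen and 0.44 and 0.51 in tumor. The clustered histone share of a cell's UMIs followed depth far less: 0.27 and 0.16, 0.07 and 0.01, and -0.05 and 0.05. These are over the 456 to 4928 cells of a library, which share that library. The same share correlated with the cell cycle share at 0.52 and 0.46 in thymus, 0.03 and 0.04 in spleen and 0.44 and 0.55 in tumor, so outside spleen it went with cell cycle RNA more than with depth.

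Each library was then divided by depth into 4 equal groups of cells. From the shallowest to the deepest group the unthinned share of cells with a clustered histone UMI rose from 74.5 to 98.9% and from 85.0 to 99.2% in thymus, from 25.4 to 43.9% and from 38.6 to 57.4% in spleen, and from 84.2 to 100% and from 92.9 to 100% in tumor. At 1000 UMIs the rise was gone in spleen, with 22.97 and 25.2% in the library labelled fl/fl and 34.7 and 30.1% in that labelled cKO. It stayed in the thymus library labelled fl/fl, from 43.1 to 60.9%, where the share of cells with 3 or more cell cycle UMIs also rose, from 64.4 to 94.7%. It dipped from 53.3 through 50.8 to 46.1% and then rose to 61.7% in the thymus library labelled cKO. In tumor it went through 36.0, 48.2, 66.7 and 35.1% in the library labelled fl/fl and through 61.0, 60.7, 73.6 and 62.1% in that labelled cKO.

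The level did not climb evenly. In the thymus library labelled fl/fl it was 777, 902, 1169 and 1198 CPM from shallow to deep, and in that labelled cKO 905, 881, 838 and 1783 CPM, a jump confined to the deepest group of that library. In spleen it ran between 276 and 353 CPM in the library labelled fl/fl and fell from 478 CPM (443 to 516) to 372 CPM (347 to 398) over the first 3 groups in that labelled cKO, then rose to 414 CPM. In tumor it rose over the first 3 groups and then fell, from 650 through 1195 and 1345 to 418 CPM in the library labelled fl/fl and from 1193 through 1458 and 1750 to 989 CPM in that labelled cKO. In these deepest tumor groups 82.5 and 37.1% of cells had 3 or more melanoma marker UMIs, against 22.8 and 2.14% in the group before.

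**Figure D4:**
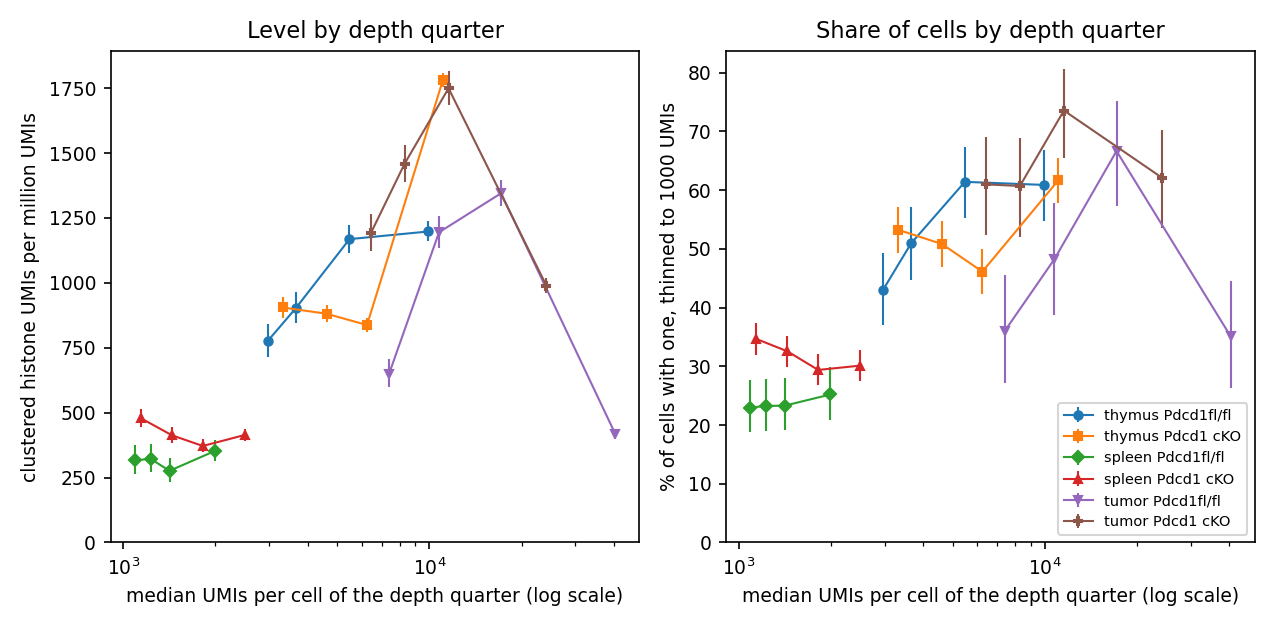
Left, clustered histone CPM, and right, percent of cells with one after thinning to 1000 UMIs, against the median UMIs per cell of each of 4 depth groups (log scale) in the 6 libraries; bars are exact 95% intervals. The tumor libraries drop in the deepest group, to 418 and 989 CPM, and the thymus library labelled cKO jumps there to 1783 CPM.

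The genotype labels contrast mice with and without Cre-driven loss of Pdcd1 in CD8+ T cells. Its product PD-1 is a receptor that restrains the activation and division of these cells. Cre acts after positive selection. In thymus 736 of 1067 and 1455 of 2635 cells held a UMI of the immature thymocyte marker Dntt. Whether Pdcd1 was deleted in those cells was not tested. In thymus the sum was higher in the library labelled cKO, with a log2 ratio of 0.28 (0.25 to 0.32), but the types went different ways. H1 was at 85.4 and 245 CPM (log2 ratio 1.52, 1.39 to 1.65), H2A at 568 and 770 CPM (0.44, 0.39 to 0.49) and H2B at 253 and 152 CPM (-0.74, -0.82 to -0.65). H3 was at 75.3 and 68.8 CPM (-0.13, -0.28 to 0.02) and H4 at 111 and 95.1 CPM (-0.23, -0.35 to -0.10). H1 was thus nearly 3 times as high and H2B lower, while H3 turned to 0.05 and H4 to -0.04 (-0.17 to 0.08) when mitochondrial, ribosomal protein and Malat1 UMIs were left out of the total, a change that shifts every thymus ratio by 0.18 and every spleen ratio by -0.14. The thymus sum then had 0.47, and without the 2% of cells with the most UMIs it had 0.19.

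All 5 H1 genes were at least 2-fold higher in the thymus library labelled cKO, from H1f5 at 1.19 (0.94 to 1.45) to H1f4 at 1.83 (1.53 to 2.14), and no other member was. They were the 5 of 61 members tested past 2-fold upward, against 7.72% of 14381 genes, and 11 of 61 were past 2-fold downward, against 5.52%. Of these 11, 7 were H2B genes, with H2bc11 at -1.64 (-1.85 to -1.43) and H2bc12 at -1.09 (-1.41 to -0.77). The median member was at -0.12 against -0.04 over all genes. Of the 61, 30 lay above 0 and 31 below, and with the other total 33 above and 28 below, so the members were split about evenly while the sum was higher. The S-phase list was lower in that library (-0.46, -0.48 to -0.44), as was the mitosis list (-0.83, -0.86 to -0.81), and a part of these in the differences by type was not tested.

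Within classes the thymus types differed again, though not all in the same direction. With 3 or more cell cycle UMIs, H1 was at 84.9 and 279 CPM (1.72, 1.58 to 1.86), H2A at 625 and 1106 CPM (0.82, 0.77 to 0.88) and H2B at 275 and 185 CPM (-0.57, -0.67 to -0.47), while H3 was higher in the library labelled cKO there, at 0.27 (0.12 to 0.43). With none, H1 was at 104 and 176 CPM (0.75, 0.17 to 1.40) and H2B was level at 91.9 and 98.0 CPM (0.09, -0.55 to 0.80). Thymus cells with a Dntt UMI, a mark of immature thymocytes, had 1179 and 1634 CPM, and those without one 765 and 689 CPM. The sum was thus higher in the library labelled cKO among cells with Dntt. Cells with Dntt were also deeper, at medians of 5364 and 6150 against 3475 and 4750 UMIs. More of them had 3 or more cell cycle UMIs, at 86.7 and 61.0% against 63.4 and 35.2%. The other total was not run on these cells, and its shift of 0.18 over all thymus cells is about the size of the difference without Dntt.

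In spleen the sum had a log2 ratio of 0.36 (0.25 to 0.48), with H1 at 0.89 (0.64 to 1.14), H2A at -0.04 (-0.22 to 0.14), H2B at 0.36 (0.07 to 0.67), H3 at 1.03 (0.40 to 1.72) and H4 at 0.33 (0.02 to 0.64). H1f2 alone went from 61.2 to 108 CPM (0.82, 0.56 to 1.09), and without it the sum had 0.23 (0.10 to 0.36), while the other total gave 0.22 (0.11 to 0.34). Of 38 members tested, 7 were 2-fold higher, against 8.16% of 12272 genes, and 0 lower, against 2.84%, and the median member was at 0.53 against 0.15. Each of those 7 had at most 4 UMIs in the library labelled fl/fl. Granulocyte progenitor markers also differed in spleen, at 1.80 CPM in that library (1 of 4 read, Prtn3, with Mpo, Elane and Ctsg at 0) and 75.6 CPM in that labelled cKO (4 of 4 read, led by Mpo). Erythroid markers were at 1.35 CPM (3 of 5 read, Hba-a1 and Hbb-bt at 0) and 29.7 CPM (5 of 5 read, led by Hbb-bs). A further marker list of other cells, not given here, was also higher in the spleen library labelled cKO and had more UMIs than these. The part of any such cells in the histone difference was not tested. By class the sum had 0.37 (0.18 to 0.56) with none and 0.39 (0.22 to 0.57) with 1 to 2 but 0.02 (-0.28 to 0.34) with 3 or more, where H2B turned to -0.64 (-1.19 to -0.05).

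In tumor the sum had a log2 ratio of 0.73 (0.69 to 0.78), and each type was higher in the library labelled cKO: H1 at 0.67 (0.47 to 0.87), H2A at 0.83 (0.77 to 0.89), H2B at 0.41 (0.31 to 0.52), H3 at 0.68 (0.52 to 0.84) and H4 at 0.80 (0.67 to 0.93). Of 61 members tested, 16 were 2-fold higher, against 6.65% of 14087 genes, and 1 lower, against 10.7%, with a median of 0.79 against -0.21. The difference was smaller without the other cells. Without cells with 3 or more melanoma or myeloid marker UMIs the ratio was 0.19 (0.15 to 0.24), and 1 of 59 members was 2-fold higher, against 8.65% of 10896 genes, and 0 lower, against 5.11%, with a median of 0.24 against 0.07. H1 kept 0.66 (0.41 to 0.92) there, H2A had 0.17 (0.11 to 0.23), H2B 0.19 (0.05 to 0.34), H3 0.05 (-0.12 to 0.21) and H4 0.27 (0.13 to 0.41). By class the sum kept 0.59 (0.33 to 0.85) with none and 0.44 (0.33 to 0.55) with 1 to 2, against 0.65 and 0.97 in all cells, and 0.11 (0.05 to 0.16) with 3 or more, against 0.63.

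H1 was thus the type that was higher in the library labelled cKO in all 3 tissues, at CPM of 85.4 and 245, 68.9 and 127, and 38.5 and 61.3. Without the other tumor cells it was at 49.2 and 77.8 CPM in tumor, and no other cells were left out in spleen. With the other total named above, H1 in all cells had log2 ratios of 1.70, 0.75 and 0.67. With 1 library per group, genotype, mouse and library cannot be told apart.

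The lists fixed around the clustered histones followed cell cycle RNA less than the clustered sum did, though in some libraries more than its H1, H2B or H4 part. Of the 17 histone RNA processing genes, led by Slbp, 6 of 16 tested were 2-fold higher with 3 or more in each thymus library. Among all genes tested there the shares were 18.4 and 16.6%. The sum of the list had 0.80 and 1.04. Slbp went from 100.3 to 290.3 CPM and from 78.7 to 226 CPM. In tumor that list was led by Cdk2, which held 2425 of its 5096 UMIs and 1076 of its 3145. Its sum there had -0.09 and -0.34 but its median gene 0.35 and 0.42, with Slbp at 1.25 and 1.51. The tumor values of this list and of the lists below include the cells with melanoma or myeloid markers. In spleen the sum of the processing list had 0.36 and 0.52. The 20 histone chaperone genes, which escort histones to DNA and are led by Nap1l1 in 5 libraries, had 0.96 and 1.29 in thymus, 0.63 and 0.53 in spleen and 0.78 and 0.73 in tumor.

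The list of replication-independent histones, most of whose messages are polyadenylated, was read at far higher counts, led by H3f3b in each library. Its 13 genes summed to 7675 and 5710 CPM in thymus, 4201 and 4635 CPM in spleen and 3544 and 4409 CPM in tumor. Their log2 folds with cell cycle RNA were 0.56 and 0.65 in thymus, 0.14 and 0.12 in spleen and 0.86 and 0.74 in tumor, below those of the clustered genes. Leaving out H2aw and H2bu2, which a newer annotation names as clustered genes, gave 0.56 and 0.65, 0.14 and 0.12, and 0.87 and 0.75. From a list of small RNAs without a poly(A) tail, Rmrp and Terc were in the files, with 2 to 11 UMIs in a library.

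Over the 18 combinations of library and class, the genes outside the set whose CPM ran most like the sum were Rbbp4 (Spearman 0.94), a histone chaperone subunit, Cenph (0.92) and Cenpp (0.91), both of the kinetochore, and Cdca8 (0.91) and Kif11 (0.90) of the spindle, among 11032 genes with at least 200 UMIs. Cdca8 and Kif11 are in the mitosis list that helped set the classes, and the 18 points share 6 libraries. Slbp ranked 3184 in that order.

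The genes were located on the GRCm39 genome with the GENCODE vM39 annotation. Of the 63, 53 lay on chromosome 13 and 10 on chromosome 3, and the chromosome 3 genes include H2ac18 and H2ac19. A histone stem-loop was found within 200 bases after the stop codon in 59. The bases just before the loop differed: H2ac23 and H2ac24 carry a run of 12 A there, H2ac8 one of 8 and H3c3 one of 7, while H1f2, H2ac18 and H2bc4 have short runs. They are shown because a run of A is a possible priming site; capitals mark the longest run of A in the 20 bases before the loop.
H2ac23 chr13:21995054-21995083 (+): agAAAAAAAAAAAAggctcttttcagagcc
H2ac24 chr13:22017199-22017228 (-): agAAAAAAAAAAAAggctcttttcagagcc
H2ac8 chr13:23754842-23754871 (-): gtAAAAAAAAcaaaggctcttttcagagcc
H1f2 chr13:23923481-23923510 (+): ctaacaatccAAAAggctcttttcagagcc
H2ac18 chr3:96153334-96153363 (+): cgagctcctAAAAAggctcttttcagagcc
H2bc4 chr13:23868616-23868645 (+): tagcgaattccAAAggctcttttcagagcc

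The 3 genes with a run of 8 or more A had a median of 6774 UMIs and the others of 308.5, but over the 59 genes the number of A in those 20 bases and the UMIs had a Spearman correlation of only 0.28. By type it was 0.20 in H2A, 0.01 in H2B, 0.60 in H3 and 0.55 in H4, over 10 to 16 genes each. Genes of a family share sequence and are not independent. Where priming took place was not tested.

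Annotation past the loop differed as well: 26 genes are annotated more than 50 bases beyond it on the genome, introns included, by 840 bases in H1f2 and 9518 in H2bc4. In the thymus library labelled cKO, the 12 members of at least 50 UMIs with the letters AATAAA in that stretch had a median log2 fold with cell cycle RNA of 1.74 and the 32 without of 2.11. In tumor the medians were 1.02 and 2.84 in the library labelled fl/fl and 0.73 and 2.46 in that labelled cKO, over 4 and 17 and over 6 and 21 members. They were 0.88 and 1.66 in the thymus library labelled fl/fl, over 8 and 22 members. Spleen had few members and did not show this, with -0.51 and -0.48 over 1 and 2 members and 0.46 and 0.07 over 2 and 5. Members with that signal past the loop, H1f2 and H2bc4 among them, thus had lower medians in thymus and tumor, but the values of both groups overlap, at -0.66 to 3.06 and -0.47 to 4.24 in the thymus library labelled cKO. The tumor medians include H2bc4 and the cells with melanoma or myeloid markers, and the difference was not tested.

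Similar copies limit what a single gene's count means. Of the 91-base windows of H2ac23, 92.8% occur in H2ac24 as well, and all windows of H2ac19 and 88.5% of those of H2ac18 occur in Gm20634, a gene of the newer annotation that is not in the files. The median gene shared 40.5% of its windows with another gene, 26 shared over 50%, and 5 shared none. How the pipeline placed reads that fit several copies is not stated, so the split of UMIs between such copies is uncertain, and sums over a pair are safer than either value. In the thymus library labelled cKO, 62.5% of the cells with an H2ac23 UMI also held one of H2ac24, which 40.4% of all cells held.

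H2A and H2B genes often stand head to head over one promoter. In RefSeq promoters (GRCm38.p6, 250 bases before to 50 after the start), 57 of the 63 symbols matched, with 58 promoters. In 9 H2A and H2B pairs the windows overlap on opposite strands. In 8 of the 9 the H2A gene gave more UMIs per kilobase of exon, with a median ratio of 6.04, as in H2ac8 with 3175 against H2bc8 with 526, and the exception was H2ac1 with H2bc1. The H2A gene also had more UMIs without division by length in 8 of the 9. A shared promoter region thus did not go with equal counts.

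The letters ATTTGCAT, the octamer bound by Oct factors, occurred on either strand in 6 of 17 H2A and 7 of 15 H2B promoters and in 0 of 5 H1, 0 of 10 H3 and 0 of 11 H4 promoters, against 1.74% of all 32851 promoters. CCAAT occurred in all 47 promoters of the other types but in 3 of 11 H4 promoters, against 37.4% of all, and TATAAA in 34 of 58, against 13.6%. The promoters of H2ac8, which it shares with H2bc8, and of H4c9, the H4 gene with the most UMIs, are shown to contrast these layouts, with the 3 motifs in capitals on either strand.
H2ac8 chr13:23571171-23571470 (-): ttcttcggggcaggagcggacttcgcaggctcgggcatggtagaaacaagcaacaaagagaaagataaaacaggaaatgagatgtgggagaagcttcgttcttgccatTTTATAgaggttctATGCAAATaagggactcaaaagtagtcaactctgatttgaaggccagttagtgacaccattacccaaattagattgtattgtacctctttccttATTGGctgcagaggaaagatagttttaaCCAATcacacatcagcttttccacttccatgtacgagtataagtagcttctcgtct
H4c9 chr13:22041313-22041612 (-): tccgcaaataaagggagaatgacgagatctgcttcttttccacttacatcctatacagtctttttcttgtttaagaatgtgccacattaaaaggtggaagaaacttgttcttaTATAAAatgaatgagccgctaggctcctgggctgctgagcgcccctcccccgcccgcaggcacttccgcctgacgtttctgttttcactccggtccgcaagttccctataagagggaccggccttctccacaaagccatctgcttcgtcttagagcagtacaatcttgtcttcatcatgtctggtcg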

How the data were processed

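Per the labels, libraries were made with the PIPseq v3 kit and analysed in Seurat 4.3.0. The deposited values are raw UMI counts per gene and barcode, which the authors made with the PIPseq analysis pipeline on GRCm39 and did not normalize. Barcodes under 500 genes or 1000 UMIs, or over 20% mitochondrial, were left out; no doublet was removed. From the counts, CPM were computed over all UMIs of the cells, shares of cells after thinning each cell to 1000 UMIs without replacement, and exact intervals. With 1 library per group, no test was run; a gene past 2-fold is a description. Code was tested on simulated data. Named genes were the 3 of each type with the most UMIs and the 3 highest and 3 lowest folds with cell cycle RNA; others were chosen after their values were seen. Members and lists were chosen with earlier results of these data known. Alternatives changed the cells, the total, the thinning, the class threshold and the leading member. Python 3.11.15, numpy 2.4.6, scipy 1.17.1, pandas 2.3.3 and matplotlib 3.10.9 were used.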

Additional observations from a re-analysis of the deposited data

Results flagged for a closer look

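Some log2 CPM ratios of the libraries labelled cKO over fl/fl pointed one way in tumor and the other in thymus, with intervals that exclude 0 in each when all UMIs are the total. The difference between tissues was not tested, and each tissue has 1 library per genotype.

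The H2B sum was at -0.736 in thymus, 0.364 in spleen and 0.412 in tumor, and the H4 sum at -0.226, 0.326 and 0.802. Among H2B genes, H2bc11 was at -1.637 in thymus and -0.864 in spleen but 0.676 in tumor, H2bc14 at -1.848 in thymus and 1.401 in tumor, H2bc3 at -1.051 and 0.98, and H2bc1 at -2.184 and 1.591. Among H4 genes, thymus and tumor gave -0.361 and 0.927 for H4c9, -1.168 and 0.636 for H4c3, and -0.513 and 0.549 for H4c8. Among H3 genes they gave -0.979 and 1.224 for H3c8, -1.056 and 0.776 for H3c10, -0.792 and 0.84 for H3c11, and -1.052 and 1.381 for H3c14. The H2A pair H2ac18 and H2ac19 gave -0.319 and 0.525 and then -0.285 and 0.796. Without cells with 3 or more melanoma or myeloid marker UMIs, tumor H2ac18 was level at 25.1 and 25.4 CPM and H2ac19 at 21.0 and 25.4 CPM. The total without mitochondrial, ribosomal protein and Malat1 UMIs moves every thymus ratio up by 0.18, which brings 0 into the thymus intervals of H4c9, H4c8, H3c11, H3c14, H2ac18 and H2ac19. With it, the thymus H4 sum was at -0.04 (-0.17 to 0.08), the spleen H2B sum at 0.22 (-0.07 to 0.53) and the spleen H4 sum at 0.19 (-0.11 to 0.50). Without cells with 3 or more melanoma or myeloid marker UMIs the tumor H2B sum was at 0.19 (0.05 to 0.34) and the tumor H4 sum at 0.27 (0.13 to 0.41). Only 1 of 59 members was then 2-fold higher in the tumor library labelled cKO, so most of the single-gene tumor values above 1 given here do not hold without those cells.

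The log2 fold of clustered histone CPM in mitosis-led over S-led cells pointed different ways among the libraries labelled cKO, at 0.321 in thymus and 0.995 in spleen but -0.281 in tumor. That difference was not tested, and the tumor value includes the cells with melanoma or myeloid markers.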

How the results depend on the processing

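No direction of the sum over all members turned under the alternatives counted here. In thymus cells without a Dntt UMI, a subset outside that count, the sum was lower in the library labelled cKO, at 765 and 689 CPM. Of 16 alternatives for the genotype ratios 8 did not move, of 18 for the shares of cells 7 did not, and of 25 for the folds with cell cycle RNA 11 did not; the others are given here, in the order fl/fl then cKO where a tissue has both, and the cause was not tested. The genotype log2 ratio was 0.22 in thymus and 0.52 in tumor with only cells holding a Cd8a or Cd8b1 UMI, 0.47 in thymus and 0.22 in spleen with the total without mitochondrial, ribosomal protein and Malat1 UMIs, 0.23 in thymus and 0.23 in spleen without the leading member, 0.19 in thymus without the 2% of cells with the most UMIs, and 0.19 in tumor without melanoma or myeloid marker cells. Thinning to 500 UMIs, which lowers the share by construction, gave 34.9 and 35.3% in thymus, 13.8 and 17.5% in spleen and 32.7 and 46.9% in tumor. Without the leading member the share was 50.6 and 49.9% in thymus and 19.5 and 24.2% in spleen, and with only Cd8a or Cd8b1 cells 48.3% in the thymus library labelled cKO. The log2 fold with cell cycle RNA at 5 or more UMIs was 1.84 in thymus and 1.41 in spleen labelled cKO, and at 2 or more it was 1.44 in thymus labelled cKO, 0.45 and 0.31 in spleen and 1.43 in tumor labelled cKO. With only Cd8a or Cd8b1 cells it was 1.74 in thymus labelled cKO and 1.70 in tumor labelled fl/fl. Without the leading member it was 1.50 in thymus and 0.89 in spleen labelled cKO, and 1.33 and 1.33 in tumor. Without melanoma or myeloid marker cells, an alternative chosen after seeing the data, it was 1.77 and 1.28 in tumor. At 5 or more UMIs the spleen library labelled fl/fl had 16 cells and was not run. No paired analysis was possible because each tissue had 1 library per genotype and no mouse was matched across genotypes. Genotype is known by label only, and Pdcd1 RNA went against it in all 3 tissues. Counts of near-identical copies may be mixed, and stem-loop messages are read in part only, so levels here are not amounts of histone RNA. In spleen, with 714 and 3686 clustered histone UMIs, depth limits most single genes.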
